A study of Mus musculus with 4 samples.

Results

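The 10 transcription factor genes described here act in the gonadal soma and were followed across cell classes and stages in single cells of the mouse XX gonad. They are Foxl2, Runx1, Irx3, Irx5, Nr0b1, Gata4, Wt1, Nr5a1, Lhx9 and Emx2, 10 of the 19321 genes in the deposited table, and they were chosen by name. Gonads of XX embryos of the C57BL/6 strain were collected daily from embryonic day E11.5 to E14.5, digested with TrypLE and profiled with droplet-based 3′ single-cell RNA sequencing. All groups share the strain and the sex, no allele or agent was applied, and each stage is 1 library. Whether several embryos were pooled for a library is not given in the sources used here, so stage and library cannot be told apart and no difference between stages could be tested.

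The gonad forms from a thickening of the coelomic epithelium, and Wt1, Nr5a1, Gata4, Lhx9 and Emx2 are each known to be needed for this bipotential primordium to form or to survive. In the XX gonad the supporting cells become pre-granulosa cells, which surround the germ cells. Foxl2 and Runx1 are known to maintain the fetal granulosa identity, Irx3 and Irx5 act in granulosa cells and in their contacts with the germ cells, and Nr0b1 encodes DAX1, a nuclear receptor without the usual DNA-binding domain that can repress NR5A1.

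Cells were placed in classes by detected genes other than the 10 factors. A supporting cell had at least 2 of Fst, Wnt4 and Wnt6. A surface epithelium cell had Upk3b with Krt19 or Krt7, an interstitial cell had Col1a1 with Acta2, and a germ cell had at least 3 of Dazl, Ddx4, Dnd1, Mael, Dppa5a and Mov10l1. Endothelial, immune and erythroid cells were set apart, and cells that met the rules of more than 1 class were kept out as mixed. Cells that met no rule were left unclassed and entered none of these classes. They numbered 1054, 704, 874 and 406 in stage order. In stage order there were 2403, 2209, 1804 and 614 supporting cells, 586, 582, 441 and 360 surface epithelium cells, 92, 126, 372 and 303 interstitial cells, and 221, 597, 716 and 2234 germ cells. The 4 libraries held 4787 to 4916 barcodes and 69458291 to 80377418 unique molecular identifiers (UMIs), with a median of 11361 to 14258 UMIs per cell, and 19382 cells were kept. Barcodes shared by at least 2 libraries numbered 175, in 354 cells.

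The class labels were checked against 6 further markers each. Of these, 4 to 5 supporting markers were highest in the supporting class, 3 to 5 surface epithelium markers in the surface epithelium, 5 to 6 interstitial markers in the interstitial class and 5 to 6 germ cell markers in the germ class. No marker was at 0 in its own class. The surface epithelium list went against its label in part: its summed level was 608, 745, 1053 and 2110 CPM (UMIs scaled to 1000000 UMIs in all) in the surface epithelium in stage order and 2260, 2182, 2079 and 2040 CPM in supporting cells. Lgals7 alone gave 2087, 1951, 1844 and 1757 CPM of the supporting sums. Cells meeting both the supporting and the surface epithelium rule numbered 174, 257, 299 and 301 in stage order. Mixed cells held 24.4% to 37.0% of the E14.5 UMIs of Runx1, Irx3, Irx5, Nr0b1, Gata4, Wt1, Nr5a1, Lhx9 and Emx2, against 16.6% of the UMIs of all genes in that library. Unclassed cells held 4.22% (Irx3) to 22.6% (Lhx9) of the E11.5 UMIs of the same factors, against 18.6% for all genes.

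Levels are summed UMIs of all cells that a class had in a library, scaled to CPM of that sum, with exact Poisson 95% intervals. Ratios carry exact binomial 95% intervals. These intervals cover counting error only. A difference was called by a rule of size: a ratio of at least 2, intervals that lie apart, at least 50 UMIs over both sums and at least 10 CPM in the higher. A difference between classes was called when this held in the same direction in all 4 libraries.

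The sequences before a RefSeq start of the factors whose levels moved most, or which carried a searched motif, are printed here beside the values. They are the 250 bases before the RefSeq transcription start (build GRCm38.p6), 5′ to 3′ on the strand of the gene. Capitals mark the motif matches. The windows available covered 6 of the 10 factors, Foxl2, Runx1 (with 2 starts), Irx3, Nr0b1, Lhx9 and Emx2. The Irx3 window is chr8:91801655-91801904 on the minus strand, the Nr0b1 window chrX:86191525-86191774 on the plus strand, and the window of the second Runx1 start chr16:92697330-92697579 on the minus strand. The Irx3 and second Runx1 windows lie inside the GENCODE gene positions given below, so they precede the RefSeq start but not the GENCODE gene. The last bases of the Nr0b1 window also overlap its GENCODE position.
Irx3: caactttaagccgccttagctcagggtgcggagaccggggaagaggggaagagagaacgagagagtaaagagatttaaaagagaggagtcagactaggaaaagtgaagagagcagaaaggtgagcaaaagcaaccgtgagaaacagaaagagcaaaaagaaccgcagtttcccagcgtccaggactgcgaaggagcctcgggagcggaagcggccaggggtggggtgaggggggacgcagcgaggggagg
Nr0b1: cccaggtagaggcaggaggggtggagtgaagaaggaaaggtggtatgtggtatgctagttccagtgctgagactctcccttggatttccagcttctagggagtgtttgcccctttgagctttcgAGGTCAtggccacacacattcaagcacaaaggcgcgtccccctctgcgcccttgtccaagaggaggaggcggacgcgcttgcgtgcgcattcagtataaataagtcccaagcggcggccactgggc
Runx1, second start: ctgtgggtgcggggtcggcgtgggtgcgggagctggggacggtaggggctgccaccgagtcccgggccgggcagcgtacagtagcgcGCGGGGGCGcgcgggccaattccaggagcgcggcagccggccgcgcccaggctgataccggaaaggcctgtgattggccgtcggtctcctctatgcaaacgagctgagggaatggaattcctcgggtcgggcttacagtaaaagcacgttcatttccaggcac

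The motifs were searched on both strands, and the share of all 32851 promoter windows that hold each was 0.3866% for TCAAGGTCA, a motif of NR5A1. It was 9.988% for AGATAA, a motif of GATA factors, 3.166% for TGTTTAC, a motif of forkhead factors, 1.495% for TGTGGTTT, a motif of RUNX factors, and 2.572% for GCGGGGGCG, shared by WT1 and EGR factors. The short nuclear receptor motif AGGTCA, which lies within the NR5A1 motif and was added after the sequences were seen, was held by 14.02%. In the 7 windows the search found GCGGGGGCG on the plus strand 163 bases before the second Runx1 start, and AGGTCA on the plus strand 126 bases before the Nr0b1 start. There was no other match. The Irx3 window had a GC content of 56.0% and 13 CpG dinucleotides, the Nr0b1 window 57.2% and 11, and the second Runx1 window 67.6% and 27.

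**Figure D1:**
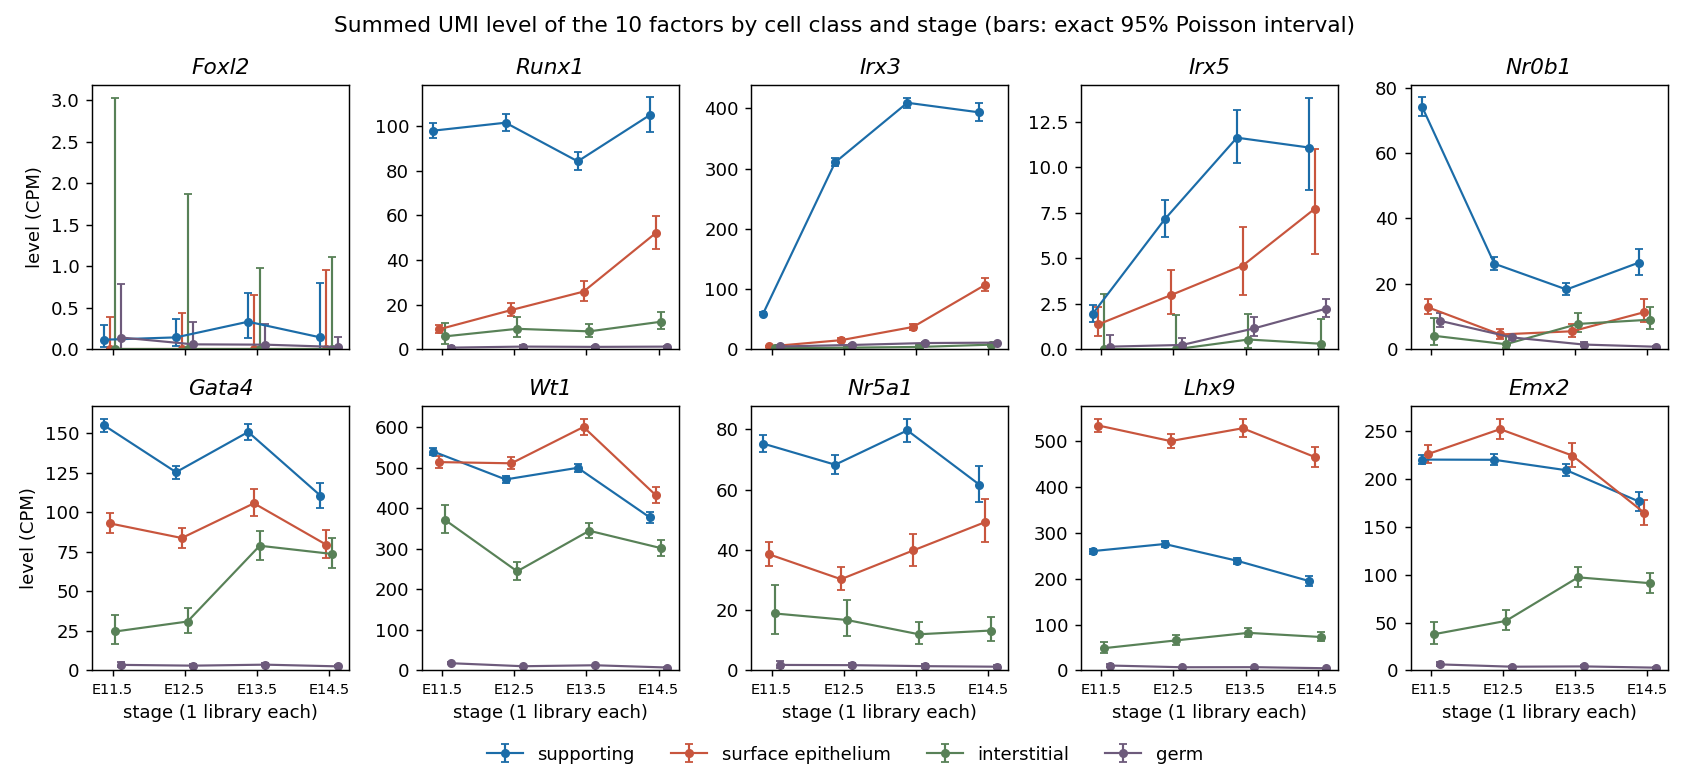
Levels of the 10 factors in CPM (vertical axis, a scale of its own for each gene) at the 4 stages (horizontal axis, 1 library each) in supporting, surface epithelium, interstitial and germ cells; bars are exact Poisson 95% intervals. Irx3 goes from 58.7 to 393 CPM and Nr0b1 from 74.1 to 26.5 CPM in supporting cells, while Foxl2 stays under 1 CPM in all 4 classes.

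Between E11.5 and E14.5, Irx3 and Irx5 were higher and Nr0b1 was lower in supporting cells, and the other 6 factors that met the minimums did not reach a ratio of 2. Of all 8379 genes that met the minimums, 7.33% were called higher and 3.06% lower, 10.4% in either direction. The median log2 ratio of the 9 factors was -0.32, beside 0.05 over all genes tested.

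Irx3, an Iroquois homeobox gene (8:91798525-91802067, minus strand, GRCm38), had 58.7 CPM (56.2 to 61.3), 310 CPM (304 to 317), 409 CPM (401 to 418) and 393 CPM (379 to 408) in supporting cells of the 4 stages in order. The E11.5 library was low and the other 3 were high. The log2 ratio of E14.5 over E11.5 was 2.74 (2.66 to 2.83), and most of it lay in the step from E11.5 to E12.5, with 2.40 (2.33 to 2.47). In that step 2.61% of 8034 genes were called higher and 1.77% lower. No factor was called in the following steps in supporting cells, where 1.56% and then 1.43% of genes were called in either direction. After each cell was thinned to 5000 UMIs, 18.2%, 58.7%, 68.5% and 66.9% of supporting cells had an Irx3 UMI in stage order, and 31.3%, 73.6%, 79.4% and 80.9% without thinning.

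Irx5, its neighbour 555.557 kb away on the same chromosome (8:92357625-92376286, plus strand), is known to act together with Irx3. Its level in supporting cells was 1.94 CPM (1.51 to 2.46), 7.15 CPM (6.20 to 8.21), 11.6 CPM (10.2 to 13.2) and 11.1 CPM (8.77 to 13.8) in stage order. As with Irx3, E11.5 was lowest and the intervals of E13.5 and E14.5 overlapped. The log2 ratio of E14.5 over E11.5 was 2.52 (2.03 to 3.01), from 68 and 78 UMIs, and Irx5 met the 10 CPM minimum through E14.5 alone. It was no longer called, being under 10 CPM, with cells counted in every class whose rule they met (95% interval of the log2 ratio 1.79 to 2.62), with the class rules read on thinned cells (1.79 to 2.89) or in cells of at least 10000 UMIs (1.58 to 2.81). Of thinned supporting cells, 0.333%, 2.35%, 4.55% and 4.56% had a UMI of both Irx3 and Irx5 in stage order, beside 0.182%, 1.81%, 3.57% and 3.49% for the product of the single shares. The product lay below the Clopper-Pearson interval at E13.5 (3.63 to 5.61) and within the interval at the other 3 stages. With cells thinned to 2000 UMIs it lay within the interval at all 4 stages, E13.5 included (0.854 to 1.97, product 0.960%).

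Nr0b1, on the X chromosome (X:86191764-86195947, plus strand), moved the other way in supporting cells. It had 74.1 CPM (71.3 to 77.0), then 26.2 CPM (24.3 to 28.1), 18.3 CPM (16.5 to 20.2) and 26.5 CPM (22.8 to 30.6). The E11.5 library stood above the other 3, and E12.5 and E14.5 overlapped. The log2 ratio of E14.5 over E11.5 was -1.49 (-1.71 to -1.27), with -1.50 (-1.62 to -1.38) in the first step. It was not called when a ratio of 4 was asked for. The share of thinned supporting cells with an Nr0b1 UMI was 27.0% at first (650 of 2403 cells), then 254 of 2209 cells, 8.20% and 12.2%, and 51.5%, 23.9%, 16.6% and 23.0% without thinning. At E11.5, 4.29% (3.51 to 5.17) of thinned supporting cells had UMIs of both Irx3 and Nr0b1, beside 4.92% for the product of the shares, which is within that interval, a pair chosen after the values were seen.

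Runx1 (16:92601466-92826149, minus strand), which encodes a RUNX family factor that pairs with CBFB, changed little in supporting cells. It had 98.0 CPM (94.7 to 101), 102 CPM (97.9 to 105), 84.2 CPM (80.4 to 88.2) and 105 CPM (97.6 to 113) in stage order, lowest at E13.5. The log2 ratio of E14.5 over E11.5 was 0.10 (-0.02 to 0.21).

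Foxl2 (9:98955288-98958543, plus strand), the forkhead gene by which granulosa cells are usually known, was hardly detected. The 4 libraries together held 21 Foxl2 UMIs in 21 of 19382 cells, of which supporting cells had 4, 4, 7 and 1 UMIs in stage order. These counts give 0.114, 0.142, 0.331 and 0.142 CPM with overlapping intervals. No Foxl2 UMI fell in surface epithelium or interstitial cells, and germ cells had 1 in each library. With so few UMIs no difference in Foxl2 between stages or classes was detectable. Whether the annotation used for counting takes in the 3′ end of Foxl2 transcripts, which this assay reads, is not given in the sources used here and was not tested, so the counts do not show how much Foxl2 RNA the cells held. Its antisense neighbour Foxl2os was not analysed here.

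The 5 factors of the early gonad kept within a ratio of 2 in supporting cells. Wt1, a zinc finger factor (2:105126529-105173616, plus strand), had 540, 471, 500 and 377 CPM in stage order. Gata4, a zinc finger factor that binds GATA sequences (14:63198922-63271692, minus strand), had 155, 125, 151 and 111 CPM. Nr5a1, the orphan nuclear receptor SF-1 (2:38692656-38714542, minus strand), had 75.3, 68.2, 79.6 and 61.6 CPM. For each of these E14.5 was the lowest library.

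The LIM homeobox gene Lhx9 (1:138825186-138848577, minus strand) had 260, 275, 239 and 195 CPM in supporting cells. Emx2, another homeobox gene (19:59458372-59465357, plus strand), had 220, 220, 209 and 177 CPM. The log2 ratios of E14.5 over E11.5 were -0.52 for Wt1, -0.49 for Gata4, -0.29 for Nr5a1, -0.42 for Lhx9 and -0.32 for Emx2. All 5 intervals lay below 0 and above -1.

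**Figure D2:**
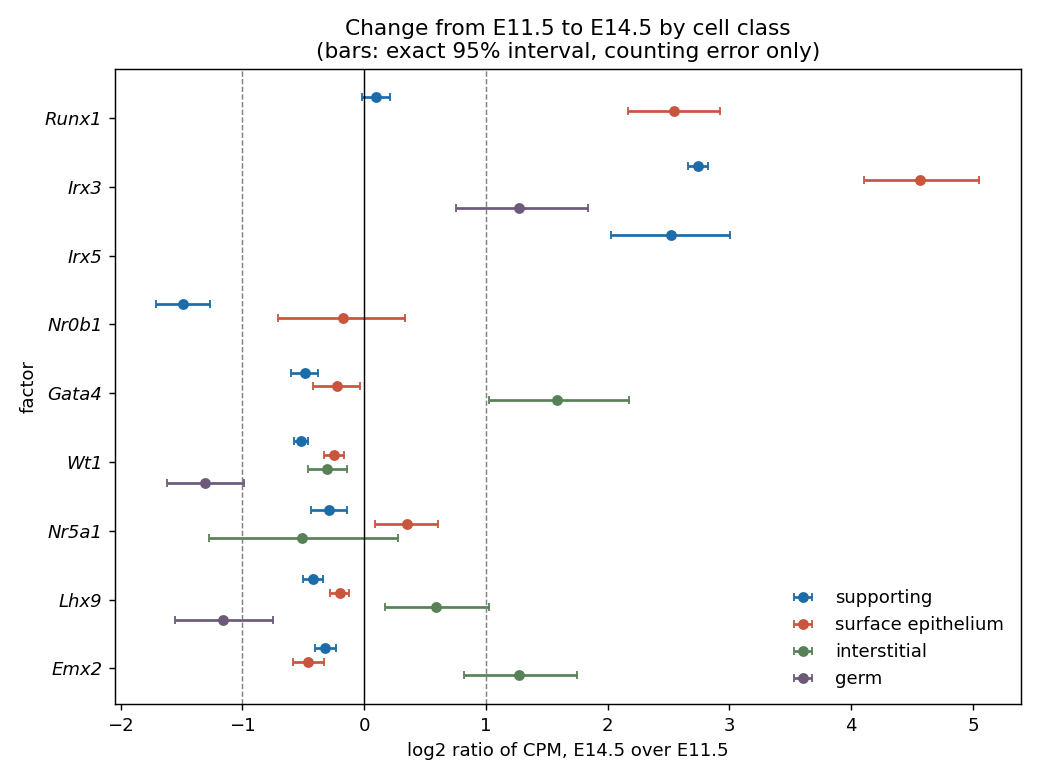
Log2 ratio of CPM at E14.5 over E11.5 (horizontal axis) for each factor that met the minimums (vertical axis), with 1 point per cell class and exact 95% intervals; dashed lines mark a ratio of 2 in either direction. Irx3 lies at 2.74 in supporting cells and 4.57 in the surface epithelium, while Gata4 and Emx2 lie above 0 in interstitial cells and below 0 in the 2 other classes shown.

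In the surface epithelium Irx3 and Runx1 were higher at E14.5 than at E11.5, 2 of the 8 factors that met the minimums. Both were under 10 CPM at E11.5 and met the minimum through E14.5 alone. Among all 8138 genes 6.5% were called higher, 2.1% lower and 8.6% in either direction. The median log2 ratio was -0.19 for the factors and -0.02 for all genes tested.

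Irx3 in the surface epithelium had 4.52 CPM (3.27 to 6.08), 15.0 CPM (126 UMIs), 37.0 CPM (32.1 to 42.3) and 107 CPM (96.9 to 118) in stage order. Each library was above the one before it with intervals apart. The log2 ratio of E14.5 over E11.5 was 4.57 (4.11 to 5.05), and the 3 steps were 1.73, 1.31 and 1.53, where 1.98%, 1.97% and 3.89% of genes were called in either direction. The thinned share of cells with an Irx3 UMI was 2.39%, 5.50%, 11.8% and 37.5%, and 5.97%, 13.4%, 22.4% and 50.3% without thinning.

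Runx1 in the surface epithelium had 8.93 CPM (85 UMIs), 17.6 CPM (14.8 to 20.6), 25.8 CPM (21.8 to 30.4) and 52.1 CPM (45.1 to 59.7). Here too each library lay above the one before. The log2 ratio was 2.54 (2.17 to 2.93). Nr0b1 in the same cells had 12.8, 4.51, 5.48 and 11.3 CPM, with E11.5 and E14.5 high and the middle stages low. It was called lower in the first step (-1.51) and higher in the last (1.05), the latter from 31 and 44 UMIs. In each of these steps Nr0b1 reached 10 CPM at only 1 stage, so the minimum itself favours a call. Its log2 ratio of E14.5 over E11.5 was -0.18 (-0.71 to 0.33). That ratio depended on the cells taken, as Nr0b1 was called in the cells of this class with no UMI of Fst, Wnt4 or Wnt6.

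Supporting cell markers moved with these values in the surface epithelium. The summed level of the 6 supporting markers there was 423, 532, 660 and 1165 CPM in stage order, beside 833, 1388, 1653 and 2022 CPM in supporting cells. Surface epithelium cells with no UMI of Fst, Wnt4 or Wnt6 were 310, 292, 178 and 55 cells, or 52.9%, 50.2%, 40.4% and 15.3% of the class. In those cells Irx3 had 2.23, 8.30, 9.35 and 23.4 CPM from 11, 34, 19 and 14 UMIs, and Runx1 had 5.28, 10.2, 19.2 and 30.1 CPM from 26, 42, 39 and 18 UMIs. Their log2 ratios there, 3.39 (2.14 to 4.67) and 2.51 (1.56 to 3.43), were not called because the UMIs fell under the minimum of 50. The part of supporting cell RNA in the full class was not tested.

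Of the early factors in the surface epithelium, Lhx9 lay above its supporting cell level, Wt1 and Emx2 lay close to it, and Gata4 and Nr5a1 lay below it at every stage. Lhx9 had 533, 499, 527 and 465 CPM, Wt1 514, 511, 601 and 433 CPM, and Emx2 226, 252, 225 and 165 CPM in stage order. Gata4 had 93.1, 83.8, 106 and 79.6 CPM, and Nr5a1 had 38.6, 30.3, 39.8 and 49.2 CPM. Irx5 had 13 to 30 UMIs per library, or 1.37, 2.97, 4.60 and 7.73 CPM, and missed the minimums. None of these factors was called between any of the stages compared in this class.

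In interstitial cells Gata4 and Emx2 were higher at E14.5, 2 of the 5 factors that met the minimums. Of 7476 genes 4.82% were called higher, 3.1% lower and 7.92% in either direction. The median log2 ratio was 0.59 for the factors and -0.08 for all genes tested. Gata4 had 24.7 CPM (16.6 to 35.2), 31.0 CPM (23.7 to 39.8), 78.9 CPM (70.2 to 88.4) and 73.7 CPM (64.8 to 83.6), low at the first 2 stages and high at the last 2. Its log2 ratio of E14.5 over E11.5 was 1.58 (1.03 to 2.18). In the step from E12.5 to E13.5 it was 1.35 (0.95 to 1.77), where 2.13% of genes were called higher.

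Emx2 in interstitial cells followed the same order, with 37.8, 51.8, 97.3 and 91.2 CPM and a log2 ratio of 1.27 (0.82 to 1.75). Neither was called when cells were counted in every class whose rule they met, with log2 ratios of 0.54 for Gata4 and 0.42 for Emx2. The E11.5 sums came from 92 cells and 30 Gata4 and 46 Emx2 UMIs. Wt1 in the interstitial class had 372, 245, 345 and 302 CPM, Lhx9 had 48.5, 65.5, 81.8 and 72.8 CPM, and Nr5a1 went from 18.9 CPM in the E11.5 library to 13.2 CPM at E14.5 without being called. Runx1, Irx3, Irx5 and Nr0b1 did not reach 13 CPM in any interstitial sum.

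**Figure D3:**
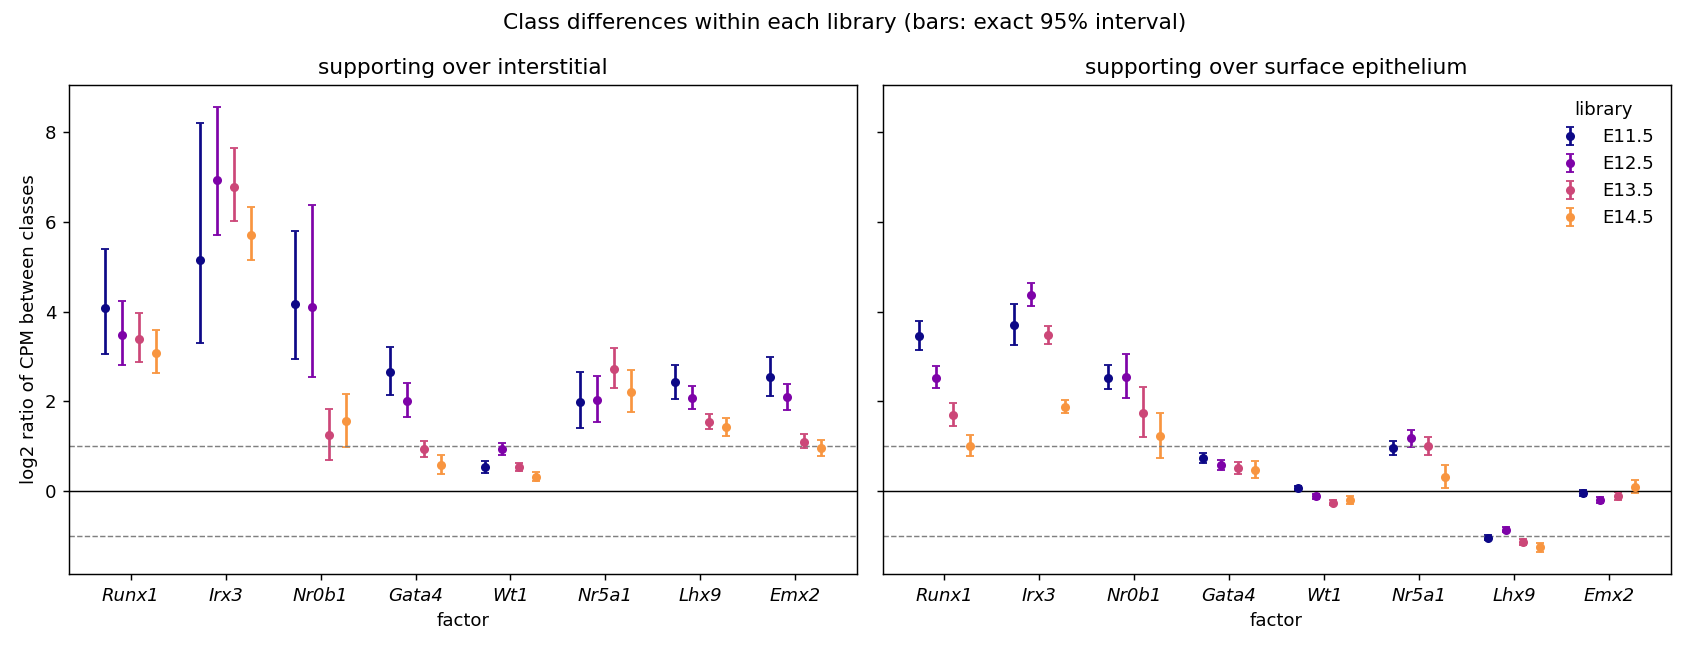
Log2 ratio of CPM (vertical axis) of supporting over interstitial cells and of supporting over surface epithelium cells for 8 factors (horizontal axis), with 1 point per library and exact 95% intervals; dashed lines mark a ratio of 2. Lhx9 is the factor whose points all lie below 0 on the right, and the Runx1 and Irx3 points of E14.5 lie nearer to 0 than those of E11.5 there.

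Between supporting and interstitial cells, 5 of the 9 factors tested were higher in supporting cells in all 4 libraries, against 7.17% of 9490 genes. They were Runx1, Irx3, Nr0b1, Nr5a1 and Lhx9. Irx3, Irx5 and Nr0b1 stayed under 10 CPM in the interstitial class and met the minimum through supporting cells alone. The count of factors called is therefore in part set by the minimum. The log2 ratios in stage order were 5.16, 6.93, 6.78 and 5.71 for Irx3, 4.09, 3.47, 3.40 and 3.09 for Runx1, and 1.99, 2.03, 2.73 and 2.22 for Nr5a1. For Nr0b1 they were 4.17, 4.10, 1.24 and 1.55, and for Lhx9 2.42, 2.07, 1.55 and 1.42. Lhx9 was no longer called in all 4 libraries with cells counted in every class whose rule they met, or in cells of at least 10000 UMIs. Gata4 narrowed from 2.65 to 0.59 and Emx2 from 2.54 to 0.95. Wt1 was the factor most alike in these classes, at 0.54, 0.95, 0.54 and 0.32.

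Between supporting and surface epithelium cells, Runx1, Irx3 and Nr0b1 were higher in supporting cells in all 4 libraries, 3 of 9 factors, against 4.62% of 9182 genes. The Runx1 log2 ratio was 3.46 (3.15 to 3.78), 2.53, 1.71 and 1.01 (0.79 to 1.24) in stage order. For Irx3 the values were 3.70, 4.38, 3.47 and 1.88, and for Nr0b1 2.53, 2.54, 1.74 and 1.22. Runx1 and Nr0b1 were not called in all 4 libraries with cells counted in every class whose rule they met, nor Runx1 on a median-of-ratios scale.

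Lhx9 was lower in supporting than in surface epithelium cells in every library, with log2 ratios of -1.04, -0.86, -1.14 and -1.26, and reached a ratio of 2 in 3 of them. For all 4 libraries, 5.21% of genes were called higher in the surface epithelium. Emx2 lay between -0.20 and 0.10 and Wt1 between -0.26 and 0.07. Lhx9 was the 1 factor of 8 called higher in surface epithelium than in interstitial cells in all 4 libraries, with log2 ratios of 3.46, 2.93, 2.69 and 2.67, against 3.08% of 9167 genes.

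**Figure D4:**
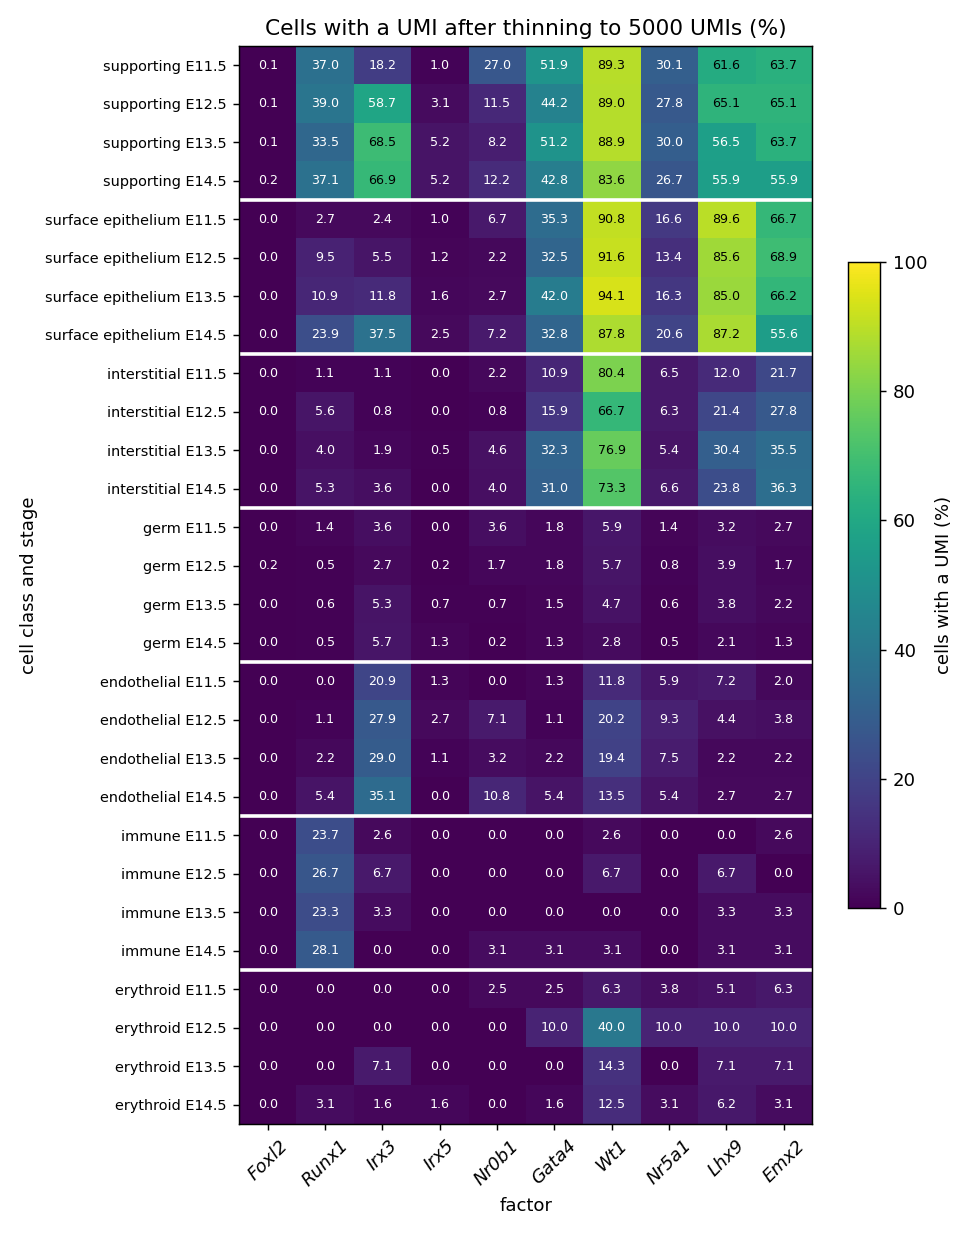
Share of cells with at least 1 UMI of each factor (columns) in each class and stage (rows), in percent, after every cell was thinned to 5000 UMIs; the colour runs from 0% to 100%. Wt1 is found in 83.6% to 94.1% of supporting and surface epithelium cells, Lhx9 in more surface epithelium than supporting cells, and Irx3 in 20.9% to 35.1% of endothelial cells.

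The number of factors found per cell set the classes apart. Of the 10 factors, the median thinned supporting cell had UMIs of 4 at each stage, the median surface epithelium cell of 3, the median interstitial cell of 1 or 2 and the median germ cell of 0. At least 5 factors were found in 30.3%, 36.5%, 37.2% and 32.6% of supporting cells in stage order, and in 5.80%, 7.04%, 12.7% and 22.8% of surface epithelium cells. No factor was found in 80.1% to 86.0% of germ cells.

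In the classes that were set apart, Irx3 had 54.9, 68.1, 82.5 and 106 CPM in endothelial cells in stage order, from 148, 222, 95 and 50 UMIs. Runx1, known for its role in blood formation, had 80.9, 75.5, 48.6 and 57.0 CPM in immune cells, from 75, 20, 19 and 21 UMIs. Of the immune cells, 13 of 38, 7 of 15, 27 of 30 and 7 of 32 were among the 6% of highest doublet score in their library. The part of doublets in these Runx1 values was not tested. In endothelial cells Runx1 had 2.23 to 10.6 CPM, and in immune cells Irx3 had 1.08 to 11.3 CPM.

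In germ cells the factors were low, and Wt1, Lhx9 and Irx3 were the ones to reach 10 CPM in any germ cell sum. All 9 factors tested were higher in supporting than in germ cells in all 4 libraries, against 22.2% of genes, 6 of 8 were higher in the surface epithelium, against 18.4%, and 6 of 7 in interstitial cells, against 18.7%. Most factors met the minimum through the somatic sums alone, so these counts are in part set by it. The germ cell level as a share of the level in all other cells of the library had a median over 9 factors of 3.74%, 3.30%, 2.84% and 4.07% in stage order. Germ cells had a median of 31268, 27377, 24799 and 15343 UMIs, and supporting cells 13747, 11668, 10456.5 and 9387.5. The factors did not share 1 ratio: Nr0b1 stood at 20.3% (15.5 to 26.0) at E11.5 and 5.79% (3.81 to 8.48) at E14.5, Irx3 at 13.3% (9.07 to 18.8) and 7.70% (6.94 to 8.52), and Irx5 at 9.62% (0.241 to 54.8) and 42.3% (32.3 to 55.1).

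**Figure D5:**
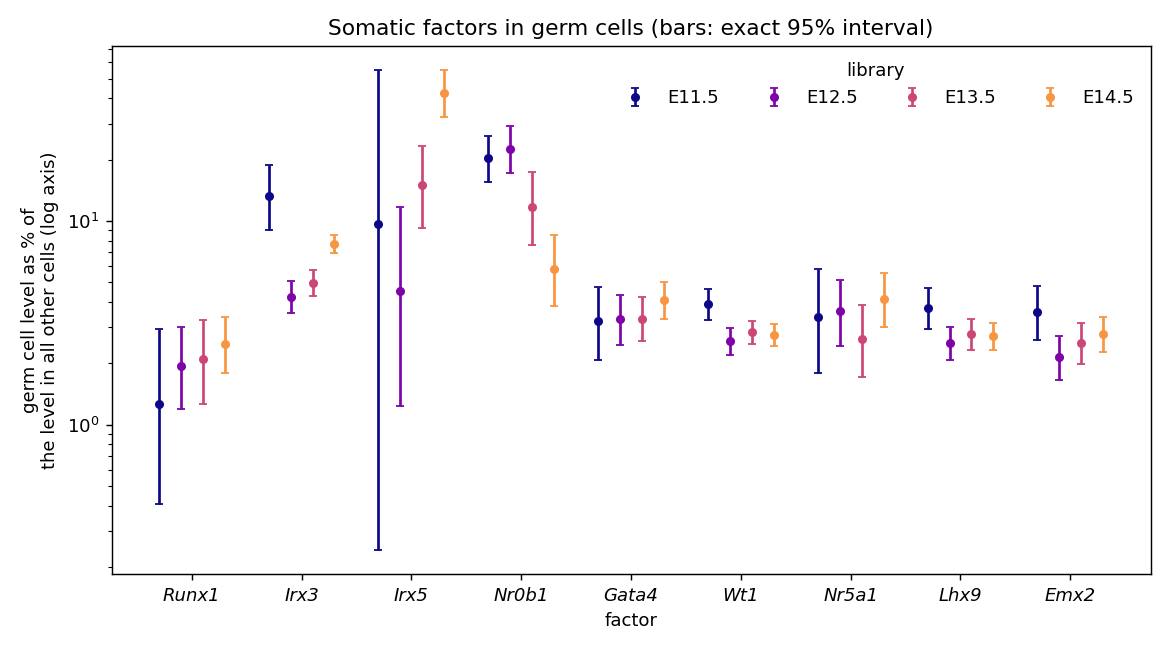
Germ cell level of 9 factors as a percentage of the level in all other cells of the same library (vertical log axis), with exact 95% intervals and 1 point per library. Runx1, Gata4, Wt1, Nr5a1, Lhx9 and Emx2 lie between 1.26% and 4.13%, while Irx3, Irx5 and Nr0b1 reach 13.3%, 42.3% and 22.6%.

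Between E11.5 and E14.5 3 factors met the minimums in germ cells, Irx3, Wt1 and Lhx9. Each reached 10 CPM in only 1 of the 2 libraries compared, so the minimum itself favours a difference and nothing is read from how many were called. The background in germ cells was 24.6% of 7791 genes higher, 9.15% lower and 33.8% in either direction. Irx3 went from 4.50 CPM (3.08 to 6.35) to 10.9 CPM (404 UMIs), a log2 ratio of 1.27, beside a median of 0.31 over all genes tested, and was not called on a median-of-ratios scale (0.95). Wt1 went from 17.9 to 7.22 CPM (-1.31) and Lhx9 from 10.7 to 4.80 CPM (-1.16). Neither Wt1 nor Lhx9 was called with cells counted in every class whose rule they met, with -0.30 and -0.32, or with the class rules read on thinned cells, with -0.71 and -0.86. Lhx9 was also not called without the cells of highest doublet score. Nr0b1 in germ cells had 8.72, 3.62, 1.42 and 0.754 CPM, from 62, 62, 26 and 28 UMIs, below the minimum of 10 CPM, and Irx5 had 0.141, 0.233, 1.15 and 2.24 CPM, from 1, 4, 21 and 83 UMIs.

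Genes with levels most like each factor were sought over the 16 sums of 4 classes and 4 libraries, which share libraries, among 8216 genes with at least 20 CPM in 1 sum, by Pearson's r of log2(CPM + 1). The closest genes were Lgals7 for Runx1 (0.985), Cst8 for Irx3 (0.967), Egfl6 for Irx5 (0.959), Asl for Nr0b1 (0.944), Borcs8 for Nr5a1 (0.986) and Dclk1 for Lhx9 (0.989). For Wt1 (0.996) and Emx2 (0.997) the closest were their antisense neighbours Wt1os and Emx2os, and Emx2os was also closest to Gata4 (0.986). The 10 factors were left out of this search. Emx2os overlaps Emx2 by 264 bases. Wt1os lies on the opposite strand to Wt1, and the starts of these 2 genes are 18 bases apart without overlap. How the authors' counting used strand is not given in the sources used here, so reads of Emx2 and Emx2os may be shared, as may those of Irx3 and Irx3os, which overlap by 1653 bases, and of Nr5a1 and Nr5a1os, which overlap by 1867 bases. Among the factors themselves r was 0.935 for Irx3 with Irx5 and 0.987 for Gata4 with Emx2, the highest of any pair of factors.

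Partners and other regulators of gonad formation were counted from a list of 23 genes, of which 16 met the minimums in supporting cells. Between E11.5 and E14.5, 1 was called higher, against 7.33% of genes: Esr1, the estrogen receptor gene, from 7.21 to 15.5 CPM. The list had 2 called lower, against 3.06% of genes. They were the homeobox gene Msx1, from 228 to 80.2 CPM, and the orphan receptor gene Nr2f1, from 37.2 to 4.41 CPM. Esr1 and Nr2f1 each reached 10 CPM at only 1 of the stages compared, so the minimum itself favours a call. The list's median log2 ratio was -0.30, beside 0.05 over all genes tested. In the surface epithelium 15 of the 23 met the minimums, with Esr1 higher and Tcf21, Nr2f1, Sox11, Lef1 and Msx1 lower. Over all genes tested in that class 6.5% were called higher and 2.1% lower. The list had a median of -0.69 beside -0.02. Sox11, a SOX family gene, went from 348 to 99.5 CPM there. Between supporting and interstitial cells, 4 of 19 were higher in supporting cells in all 4 libraries (Cited2, Pax8, Lef1 and Msx1), against 7.17% of genes. Tcf21, Nr2f1, Nr2f2, Osr1 and Sox11 were among those higher in interstitial cells in all 4 libraries, where 7.05% of genes were called in that direction.

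Of 8 genes known as NR5A1 targets, 4 met the minimums in supporting cells. Hsd3b1, a steroid dehydrogenase gene, was called higher, with 1.82, 5.12, 18.3 and 41.4 CPM in stage order. Cyp11a1, which encodes the cholesterol side-chain cleavage enzyme, was called lower, with 54.7, 5.51, 2.03 and 1.56 CPM. Of all genes tested, 7.33% were called higher and 3.06% lower between E11.5 and E14.5. Hsd3b1 and Cyp11a1 each reached 10 CPM at only 1 of these stages, so the minimum itself favours a call. The list's median log2 ratio was -0.39. Nr5a1 itself stayed within 61.6 to 79.6 CPM in those cells. In the surface epithelium, 2 of the 3 that met the minimums were called higher, against 6.5% of genes. They were Star, which encodes a cholesterol transporter, from 4.73 to 20.1 CPM, and Inha, an inhibin subunit gene, from 8.40 to 17.0 CPM. Both were under 10 CPM at E11.5 and met the minimum through E14.5 alone, so the minimum itself favours a higher call. Inha had 133, 70.5, 65.3 and 86.1 CPM in supporting cells, and the summed supporting markers in the surface epithelium went from 423 to 1165 CPM. Their part in the Inha, Star and Esr1 values of this class was not tested. Of the testis pathway list of 8 genes, 7 were analysed and 3 met the minimums in supporting cells. Dmrt1 was called lower there, against 3.06% of genes, with 29.2, 9.46, 4.02 and 2.13 CPM. It met the minimum of 10 CPM through E11.5 alone, and the list's median was -0.36. Of 11 paralogs of the factors, 1 met the minimums in supporting cells, Gata6, with 153, 203, 215 and 155 CPM and no call.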

How the data were processed

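Single cells of 4 libraries were sequenced with the 10x Chromium 3′ kit, version 2, per the labels' protocols. Cell Ranger 2.2.0 and mm10 are named in the submitters' processing notes. The annotation, cell filters and normalization tool are not given in the sources used here. The deposited values are natural log values, that is ln(1 + 10000 × a gene's share of its cell's UMIs), a form read from the values. All 69792436 values above 0 (100%) were whole multiples of the smallest in their cell at a tolerance of 1e-06, so UMI counts were recovered and used throughout, although the plan had assumed counts. Cells over 20% mitochondrial UMIs (3, 1, 1 and 0 in stage order) were left out, and no cell was under 5000 UMIs.

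Classes, levels and calls followed the rules given above. Endothelial cells needed at least 3 of Pecam1, Cdh5, Kdr, Cldn5 and Emcn. Immune cells needed at least 3 of Ptprc, Tyrobp, Fcer1g, Laptm5 and Coro1a, and erythroid cells at least 10% of UMIs from globin genes. No doublet caller was applied in the main analysis beyond leaving out mixed cells. Cells of 1 library are not replicates, so there was no test. All 10 factors are named, with up to 4 examples of highest level from each other list and any gene called. A listed gene is not reported here. The factors and lists were chosen with earlier results of these data known. The analysis was repeated with 7 other settings (cells in every class they meet, the 6% of cells with the highest Scrublet scores left out, thinned class rules, cells of at least 10000 UMIs, median-of-ratios scaling, no CPM minimum, a ratio of 4), other thinning depths, and 2 chosen after the data were seen. Python 3.11.15, numpy 2.4.6, scipy 1.17.1, pandas 2.3.3, scanpy 1.11.5 and matplotlib 3.10.9 were used. Gene positions are from GENCODE on GRCm38, the assembly of mm10.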

Additional observations from a re-analysis of the deposited data

Results flagged for a closer look

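For 4 factors the log2 ratio of E14.5 over E11.5 went in opposite directions in different classes, with both intervals away from 0. These differences between classes were not tested. Gata4 had 1.58 (1.03 to 2.18) in interstitial cells, -0.49 (-0.60 to -0.38) in supporting cells and -0.23 (-0.42 to -0.04) in the surface epithelium. Emx2 had 1.27 (0.82 to 1.75), -0.32 (-0.41 to -0.23) and -0.46 (-0.59 to -0.33) in the same classes.

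Lhx9 had 0.59 (0.17 to 1.02) in interstitial cells, -0.42 (-0.50 to -0.33) in supporting cells, -0.20 (-0.28 to -0.12) in the surface epithelium and -1.16 (-1.55 to -0.75) in germ cells. Nr5a1 had 0.35 (0.09 to 0.61) in the surface epithelium and -0.29 (-0.44 to -0.14) in supporting cells. The Nr5a1 value in the surface epithelium was -1.04 (-2.13 to -0.12) in cells with no UMI of Fst, Wnt4 or Wnt6 and -0.00 with cells counted in every class whose rule they met.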

How the results depend on the processing

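No paired analysis was possible because each stage has 1 library and the labels give no replicate numbers, and for the same reason no replicate could be left out. The counts of factors called between E11.5 and E14.5 were 3 in supporting, 2 in surface epithelium, 2 in interstitial and 3 in germ cells, and those called in all 4 libraries were 5 for supporting against interstitial, 3 for supporting against surface epithelium and 1 for surface epithelium against interstitial cells. With cells counted in every class whose rule they met, interstitial and germ cells each had 1 and supporting against surface epithelium 1. The interstitial call in that setting was neither Gata4 nor Emx2, the factors called in the main analysis. With class rules read on thinned cells, germ cells had 1 and surface epithelium against interstitial 2. Germ cells had 6 without the CPM minimum. At a ratio of 4, interstitial cells, germ cells and supporting against surface epithelium had 0 and supporting against interstitial 2. In surface epithelium cells without Fst, Wnt4 or Wnt6, an alternative chosen after the data were seen, 1 factor was called, Nr0b1. All other counts stayed within 1.5 times. No called value changed sign. Levels lay outside their main interval in 97 of 160 sums when cells were counted in every class whose rule they met, and shares in 155 of 192 without thinning and 152 of 192 at 2000 UMIs. Apart from the settings' own construction, the cause of these changes was not tested. Few UMIs limit what can be called for Foxl2 in all 4 classes and for Irx5 outside supporting cells, and why Foxl2 counts were low was not tested.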

Other observations

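Paralogs of the factors had UMIs in germ cells. Irx2, an Iroquois gene like Irx3 and Irx5, had 0, 0.175, 1.69 and 3.99 CPM in germ cells in stage order and at most 0.0946 CPM in supporting cells. Lhx2, the paralog of Lhx9, had 0.703, 0.583, 5.30 and 8.33 CPM in germ cells and 0.599, 0.320, 0.237 and 0.142 CPM in supporting cells. In the surface epithelium Lhx2 had 1.47, 0.831, 2.30 and 0.773 CPM, above germ cells with overlapping intervals at the first 2 stages and below them with intervals apart at the last 2. Nr5a2, the paralog of Nr5a1, had 13.4, 15.2, 11.7 and 4.45 CPM in germ cells, while supporting cells had at most 0.569 CPM. Between E11.5 and E14.5 Nr5a2 was called lower in germ cells, against 9.15% of genes. Of these stages it reached 10 CPM at E11.5 alone, so the minimum itself favours a lower call. Irx2 and Lhx2 stayed under the minimum of 10 CPM.

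Dmrt1 was lower at E14.5 in supporting cells and higher in germ cells, where its log2 ratio of E14.5 over E11.5 was 1.85. That difference between classes was not tested.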
